A study of Mus musculus with 4 samples.

Results

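In the 2 knockout libraries, 351 of 6420 kept spots held at least 3 summed UMIs (unique molecular identifiers, each standing for 1 captured transcript) of Angpt2, Plvap and Procr. They are called marker spots here. Kept spots had at least 5000 UMIs, and the 4 libraries of the series held 11244 of them. Knockout 1 had 122 marker spots among 2952 kept spots (4.13%, 95% Wilson interval 3.47 to 4.91), and knockout 2 had 229 among 3468 (6.60%, 5.82 to 7.48). The intervals cover counting error only. The spots were selected on the measured UMIs of these 3 genes, so their levels are given as a description with no test.

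Fresh-frozen mouse brain was cut at 10 µm and profiled on 10x Visium slides, whose barcoded capture spots each take up RNA from several cells that may be of different types. The knockout group was Slco1c1-iCreERT2;Pdcd10fl/fl (2 libraries), in which a tamoxifen-regulated Cre active in brain endothelium removes floxed Pdcd10. The control group was Pdcd10fl/fl littermates without the Cre (2 libraries), so both groups carry the floxed alleles. The design gives 50 µg of 4-hydroxytamoxifen on postnatal day 1 and brains at postnatal day 65, and the labels do not say how many animals the libraries of a group represent. The p-values below therefore speak only of these libraries, whose differences may be technical. Within the knockouts a test leaves 1 residual degree of freedom per gene. Its error is thus estimated mostly from all genes together. Neither the p-value nor the standard error measures the spread of a gene between the 2 libraries. The titles and design text describe normoxia, one treatment label reads hypoxia for both knockouts and normoxia for both controls, and the protocol of all 4 libraries gives 12% oxygen for 2 days. If that treatment label holds, oxygen and genotype cannot be told apart in any value that sets knockouts against controls.

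Pdcd10 (Ccm3) encodes an adaptor protein, and when brain endothelium loses it, cavernous malformations form, which are groups of enlarged, leaky capillaries. Angpt2 encodes angiopoietin 2, a ligand that can oppose Tie2 signalling and is made by remodelling endothelium. Plvap encodes the diaphragm protein of fenestrated capillaries, which mature brain endothelium largely lacks, and Procr encodes the endothelial receptor of the anticoagulant protein C.

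No spot was placed relative to a lesion, so whether these are lesion spots was not tested. Of the 3 genes, Angpt2 and Procr set knockouts apart from controls, and Plvap did so far less. Levels are given in CPM, the UMIs of a gene scaled to the summed UMIs of its class of spots in 1 library. Over all kept spots, Angpt2 stood at 8.07 and 8.002 CPM in knockouts 1 and 2, against 0.667 and 1.20 in controls 1 and 2. Procr stood at 6.90 and 6.13 CPM in the knockouts, against 0.354 and 0.508 in the controls. Plvap stood at 19.9 and 20.9 CPM in the knockouts, against 18.3 and 16.0 in the controls. Thus 2 of the 3 genes were near absent from control spots, while the control levels of Plvap were 16.0 or more.

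Kept spots were then ordered by their endothelial share, which is the percentage of UMIs in Cldn5, Pecam1, Flt1, Cdh5 and Esam, and divided into quartiles within each library. Across the quartiles of knockout 1, Angpt2 stood at 4.66, 5.69, 7.41 and 17.8 CPM and Procr at 3.33, 4.85, 6.90 and 15.6. Knockout 2 had the same order, with 4.02, 6.12, 7.50 and 17.1 for Angpt2 and 2.83, 3.76, 4.94 and 15.8 for Procr. Plvap showed no such order in knockout 1, with 19.4, 20.2, 21.5 and 18.6, and in knockout 2 it stood at 18.1, 21.8, 20.4 and 24.6. In the controls the Plvap quartiles lay between 15.4 and 20.1. Angpt2 and Procr were far lower in controls 1 and 2 but were also highest in the top quartile. They stood there at 1.63 and 2.43 for Angpt2 and at 0.763 and 1.33 for Procr. The mean endothelial share of all kept spots was 0.0330% and 0.0311% in the knockouts, against 0.0105% and 0.0111% in the controls. Angpt2 and Procr therefore sat with endothelial transcripts, and Plvap was spread almost evenly over spots poor and rich in them.

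**Figure D1:**
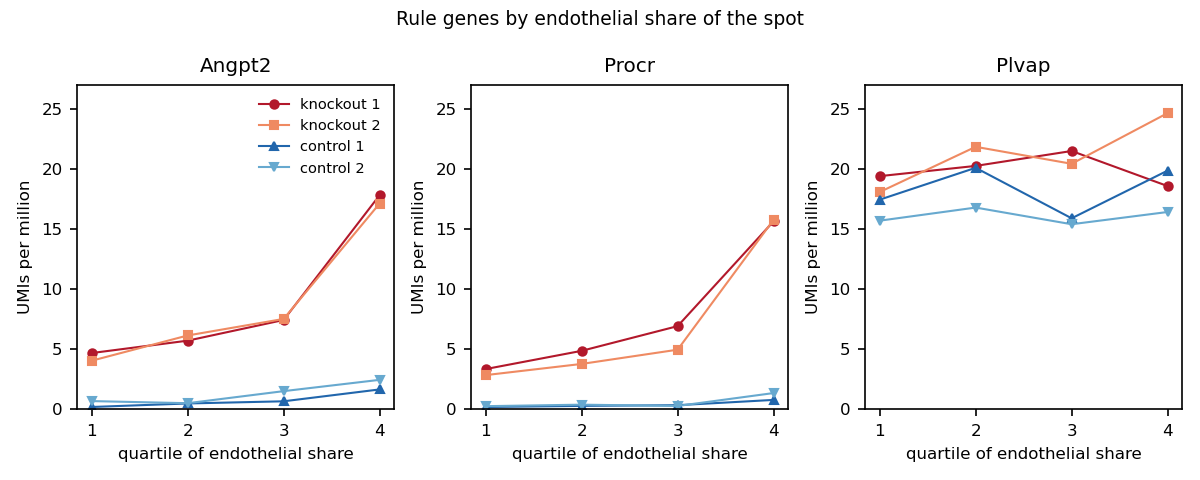
Angpt2, Procr and Plvap in CPM (y axis) across quartiles of the endothelial share of a spot (x axis), 1 line per library. Angpt2 and Procr climb to between 15.6 and 17.8 in the top quartile of both knockouts, while all 4 Plvap lines stay between 15.4 and 24.6.

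Plvap did differ by brain region. Among spots assigned to the thalamus gene list, Plvap stood at 29.0 and 29.0 CPM in the knockouts, against 13.3 and 12.3 in the controls. Among spots of the cortex list the knockouts had 17.8 and 17.6, against 18.01 and 15.03 in the controls. For the hypothalamus and amygdala list the knockouts had 21.7 and 24.9, against 30.3 and 22.6 in the controls. The thalamus list also met the rule often, in 8.60% of its spots in knockout 1 and 11.4% in knockout 2, and in knockout 2 only the hypothalamus and amygdala list met it more often, at 13.6%.

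The gene with the most UMIs in a marker spot was Plvap in 70 spots of knockout 1 and 140 of knockout 2, Angpt2 in 27 and 41, and Procr in 19 and 23, with 6 and 25 ties. The gene that the controls also carry thus led most marker spots. The Plvap-led spots had median endothelial shares of 0.0253% and 0.0195%, below the 0.0664% and 0.0447% of Angpt2-led spots and the 0.0556% and 0.0705% of Procr-led spots. Of the marker spots, 64 and 138 held at least 2 of the 3 genes and 9 and 31 held all 3.

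Most members lay at the edge of the rule. In knockout 1, 82 spots had a sum of exactly 3 UMIs, 26 had 4 and 14 had 5 or more, with 262 spots just outside at 2. In knockout 2 the counts were 138, 54 and 37, with 346 just outside, and the highest sum was 26. Marker spots of knockouts 1 and 2 had median depths of 26522 and 29707 UMIs, against 13855 and 16931.5 over all kept spots. The share of spots that met the rule was higher in each deeper bin of both knockouts up to 40000 UMIs. It was 0.622%, 2.63%, 7.03% and 14.7% in knockout 1 over the bins from 5000, 10000, 20000 and 30000 UMIs, and 14.3% from 40000. Knockout 2 gave 0.922%, 3.31%, 9.40%, 15.3% and 18.2%. When every kept spot was thinned to 5000 UMIs before the rule was applied, 8 and 12 spots met it, so the sums of most marker spots could not be reached at equal depth.

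**Figure D2:**
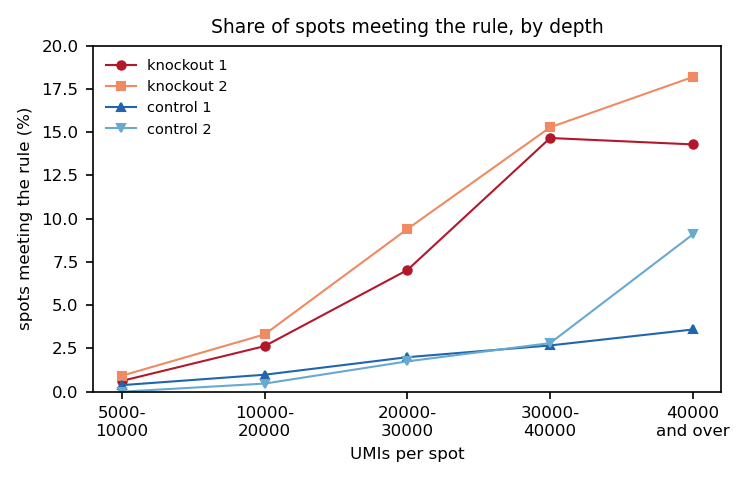
Percentage of kept spots that met the rule (y axis) by UMIs per spot (x axis), 1 line per library. All 4 lines climb from the shallowest bin, to 14.3% and 18.2% in the knockouts and 3.59% and 9.09% in the controls in the deepest bin.

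To set marker spots apart from endothelial content, each one was paired with another kept spot of its library that had the nearest endothelial share. The median shares were 0.0298% and 0.0269% in marker spots of knockouts 1 and 2, against 0.0298% and 0.0269% in their matched spots. Depth was not matched by this step: matched spots had median depths of 11977.5 and 16914 UMIs, below those of the marker spots given above. In marker spots Angpt2 stood at 32.1 and 28.4 CPM, against 6.96 and 5.55 in matched spots. Plvap stood at 72.7 and 69.0, against 11.6 and 16.2, and Procr at 24.5 and 21.9, against 5.22 and 6.41. These 3 differences follow from the rule.

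Marker spots were richer than matched spots in transcripts of Ptgds and of some neuronal genes, Slc17a6, Gad1 and Gad2 among them, and poorer in transcripts of the reactive astrocyte, phagocyte, complement and red cell lists. Counts were summed per library and class, and edgeR's quasi-likelihood test with the library as a block and Benjamini-Hochberg adjustment called 373 genes higher and 482 lower of 13181 tested, which is 6.49% of the genes (2.83% higher and 3.66% lower). The median log2 fold change of all genes tested was -0.00. The set of calls depended on depth and on the Plvap-led spots. With matching on share and total UMIs, 99 genes were higher and 177 lower (2.02% of 13655). These were 0.725% higher and 1.3% lower. Without the Plvap-led spots, 37 were higher and 52 lower (0.796% of 11183, with 0.331% higher and 0.465% lower). With both changes 30 were higher and 16 lower (0.39% of 11786, with 0.255% higher and 0.136% lower). Of the 855 calls, 189 were called in the same direction after matching on both measures and 7 with both changes. DESeq2 called 23 higher and 40 lower.

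Endothelial genes outside the rule and the matching differed little. Of 20 tested members of the other pan-endothelial list, 1 was higher and none lower, with a median log2 fold change of 0.16. That gene was Ly6c1, an endothelial surface protein gene, at 285 and 325 CPM in marker spots of knockouts 1 and 2, against 227 and 266 in matched spots (log2 fold change 0.29 ± 0.06 SE, adjusted p 0.00123 by edgeR). None of 25 blood-brain barrier genes passed in either direction by edgeR or by DESeq2, and at an unadjusted p under 0.05 by edgeR 4 were higher and 1 lower. In these summed spots, fewer cells of a type cannot be told apart from less RNA per cell. Slc2a1, the glucose transporter of the barrier, had 358 and 392 CPM, against 322 and 340 (log2 fold change 0.17 ± 0.06, adjusted p 0.0821).

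Among 26 tip cell and angiogenesis genes, only Pgf passed. Pgf encodes placental growth factor, a ligand of Flt1, and was chosen after its values were seen. It had 21.2 and 33.8 CPM in marker spots, against 13.9 and 14.5 in matched spots (log2 fold change 1.05 ± 0.18, adjusted p 2.64e-05 by edgeR). The marker spots were higher in both libraries, and the fold was close to this value with matching on both measures (1.04) and without the Plvap-led spots (1.29). In knockout 2, 1 marker spot held 59 of 249 Pgf UMIs. There 5 marker spots held 41.8% of them, against 19.1% in 5 matched spots, and in knockout 1 34.3% against 33.3%. Apln encodes apelin, a peptide of sprouting endothelium, and was also chosen after its values were seen. It had 47.6 and 38.5 CPM in marker spots, against 34.8 and 33.1 in matched spots, and did not pass (log2 fold change 0.29 ± 0.13, adjusted p 0.209). It passed with matching on both measures (0.67), without the Plvap-led spots (0.82) and with both changes (1.15).

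The 21 tested genes of the list of vascular genes known from cavernous malformations held no rise and 4 falls. With matching on both measures there were 1 rise and no fall among 22, so this count turned with depth.

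Cxcl10, a chemokine induced by interferon, rose in both libraries. It had 14.5 and 28.8 CPM in marker spots, against 9.86 and 9.40 in matched spots (log2 fold change 1.35 ± 0.21, adjusted p 3.93e-06 by edgeR). Over all kept control spots it had 0.250 and 0.213. Its UMIs were confined to few spots: 5 of 122 marker spots in knockout 1 and 15 of 229 in knockout 2 held any, against 6 and 17 matched spots. In knockout 2, 5 marker spots held 93.9% of its UMIs, against 72.7% in 5 matched spots. Matched to spots of the same region list, the log2 fold change was 0.22 and did not pass. Rsad2, an antiviral gene induced by interferon, had 5.15 and 10.9 CPM, against 2.90 and 4.91 (log2 fold change 1.07 ± 0.33, adjusted p 0.0350), with 88.2% and 80.0% of its marker-spot UMIs in 5 spots. Its fold was -0.35 with matching inside region lists, and 0.67 and not passing with matching on both measures. The interferon response list as a whole had 1 rise and 2 falls among 34 genes, with a median of -0.07.

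Ptgds was the only one of 9 leptomeninges genes that passed. Ptgds, which encodes prostaglandin D synthase and is abundant in leptomeninges and oligodendrocytes, had 2749 and 4209 CPM in marker spots, against 1691 and 2088 in matched spots (log2 fold change 0.85 ± 0.06, adjusted p 4.16e-19 by edgeR). In knockout 2, 1 of 229 marker spots held 26.3% of its UMIs, and without that spot, an alternative added after the data were seen, its level was 3117 CPM and the log2 fold change 0.62, still passing. The fold was 0.19 with matching on both measures, and -0.021 with the Plvap-led spots also left out. The summed leptomeninges list stood at 2905 and 4565 CPM in marker spots, against 1855 and 2361 in matched spots, and its part in other differences was not tested.

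The neuronal lists moved both ways. Of 13 excitatory neuron genes 2 rose and 8 fell, and of 11 inhibitory neuron genes 5 rose and 2 fell. With matching on both measures, 1 rose and 1 fell of the first list and 3 rose and 3 fell of the second. Among the single genes with large rises were 4 developmental regulators. Otx2, a factor of the midbrain and choroid plexus, had 19.4 and 12.2 CPM in marker spots, against 11.0 and 3.63 in matched spots (log2 fold change 1.30 ± 0.27). Shox2 and Lhx9, both known from thalamic neurons, had fold changes of 1.21 ± 0.23 and 1.11 ± 0.24, and Mab21l1 one of 1.502 ± 0.27. The adjusted p of these 4 genes by edgeR lay between 5.51e-05 and 0.000692, and marker spots were higher in both libraries for each. With matching on both measures only Shox2 of the 4 passed (0.69), and with the Plvap-led spots also left out the folds were -1.35 for Otx2, -0.54 for Shox2, -1.25 for Mab21l1 and 0.21 for Lhx9. Slc17a6, the glutamate transporter of subcortical neurons, had 128 and 137 CPM, against 93.9 and 73.7 (0.72 ± 0.09). Gad1 and Gad2, which make GABA, rose by 0.51 ± 0.06 and 0.67 ± 0.08. Slc17a7, the transporter of cortical and hippocampal neurons, fell to 632 and 602 CPM in marker spots, against 836 and 923 in matched spots (-0.54 ± 0.06). Penk, which encodes enkephalin, fell by 0.63 ± 0.08, and Neurod6, a factor of cortical excitatory neurons, fell by 1.24 ± 0.16. Without the Plvap-led spots the fold of Slc17a6 was -0.38 and that of Slc17a7 0.10, neither passing.

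Region composition moved with these neuronal genes. Each spot was assigned to a region list by its own transcripts, so these shares are not a separate observation. The thalamus list took 15.6% and 11.8% of marker spots in knockouts 1 and 2, against 7.38% and 8.73% of matched spots. The hippocampus list took 7.38% and 7.86% of marker spots, against 11.5% and 16.2% of matched spots. The hypothalamus and amygdala list took 14.4% of marker spots in knockout 2, against 6.99% of matched spots, and 6.56% against 9.02% in knockout 1. Its part in the neuronal differences was not tested. With matching inside each region list, 152 genes were higher and 189 lower.

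Cartpt had the largest rise among genes with a mean of at least 10 CPM and the same direction in both libraries, and 1 library decided it. Cartpt encodes the CART neuropeptide and had 93.3 and 876 CPM in marker spots, against 80.6 and 56.6 in matched spots (log2 fold change 3.02 ± 0.22, adjusted p 1.20e-17 by edgeR). In knockout 2, 5 of 229 marker spots held 78.3% of its UMIs. Ucn, the urocortin gene, was chosen after its values were seen and had 6.97 and 68.1 CPM, against 7.54 and 3.204, with 86.0% of its knockout 2 UMIs in 5 spots. Both peptides are known from the Edinger-Westphal nucleus of the midbrain. Vgll3, a transcription cofactor gene, had 8.18 and 43.1 CPM in marker spots, against 6.38 and 19.2 in matched spots (1.07 ± 0.18, adjusted p 1.52e-05 by edgeR). In knockouts 1 and 2, 5 marker spots held 63.0% and 54.9% of its UMIs, against 63.6% and 53.3% in 5 matched spots. In knockout 1 it had 27 UMIs in marker spots, 10 of them in 1 spot.

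Glial and immune genes were lower in marker spots, but these differences shrank once depth was matched. Of 26 reactive astrocyte genes, 11 fell and 1 rose, with a median log2 fold change of -0.29. Gfap, the astrocyte intermediate filament, had 264 and 218 CPM in marker spots, against 399 and 329 in matched spots (-0.61 ± 0.06, adjusted p 1.48e-11 by edgeR). Vim, vimentin, had 347 and 311, against 554 and 510 (-0.71 ± 0.06, adjusted p 1.40e-15), and Serpina3n, an acute-phase protease inhibitor, had 365 and 286, against 564 and 404 (-0.57 ± 0.06, adjusted p 2.51e-11). The marker spots were the lower class in both libraries for all 3 genes, and over all kept control spots Gfap stood at 58.2 and 70.2 CPM. With matching on share and total UMIs the folds were -0.14, -0.06 and -0.17, and none of the 3 passed.

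Of 26 activated phagocyte genes 12 fell and none rose, of 17 complement genes 7 fell and none rose, and of 15 homeostatic microglia genes 5 fell and none rose, with medians of -0.33, -0.36 and -0.39. Spp1, which encodes osteopontin, had 74.2 and 104 CPM in marker spots, against 271 and 173 in matched spots (-1.19 ± 0.10, adjusted p 2.01e-14 by edgeR). The complement genes C1qa, C1qb and C1qc fell by 0.56 ± 0.08, 0.44 ± 0.08 and 0.68 ± 0.09, and Fcer1g, an adaptor of Fc receptors, fell by 0.70 ± 0.12. The border macrophage gene F13a1, the chemokine gene Ccl12 and the neutrophil gene S100a9 fell by 1.27 ± 0.30, 1.00 ± 0.23 and 0.91 ± 0.22. With matching on both measures, 1 phagocyte gene, 1 complement gene and 1 homeostatic microglia gene still fell and none rose. In the first matching, DESeq2 called 1 gene lower in each of these 3 lists.

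All 5 tested genes of the red cell list fell, with a median of -0.97, and DESeq2 called 1 of the 5 lower. Hba-a2, a haemoglobin alpha gene, had 127 and 129 CPM in marker spots, against 282 and 232 in matched spots (-0.98 ± 0.07, adjusted p 4.28e-17 by edgeR). Hbb-bs and Hba-a1 fell by 0.93 ± 0.07 and 0.98 ± 0.08. The haemoglobin alpha genes are near-identical copies, so their counts may share reads. With matching on both measures 1 of the 5 fell, and with the Plvap-led spots also left out 1 of 5 rose and none fell. Malat1, a nuclear RNA, had 206 and 230 CPM in marker spots, against 396 and 443 (-0.96 ± 0.06), while the median share of mitochondrial UMIs was 7.67% and 8.22% in marker spots, against 9.09% and 8.81%.

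**Figure D3:**
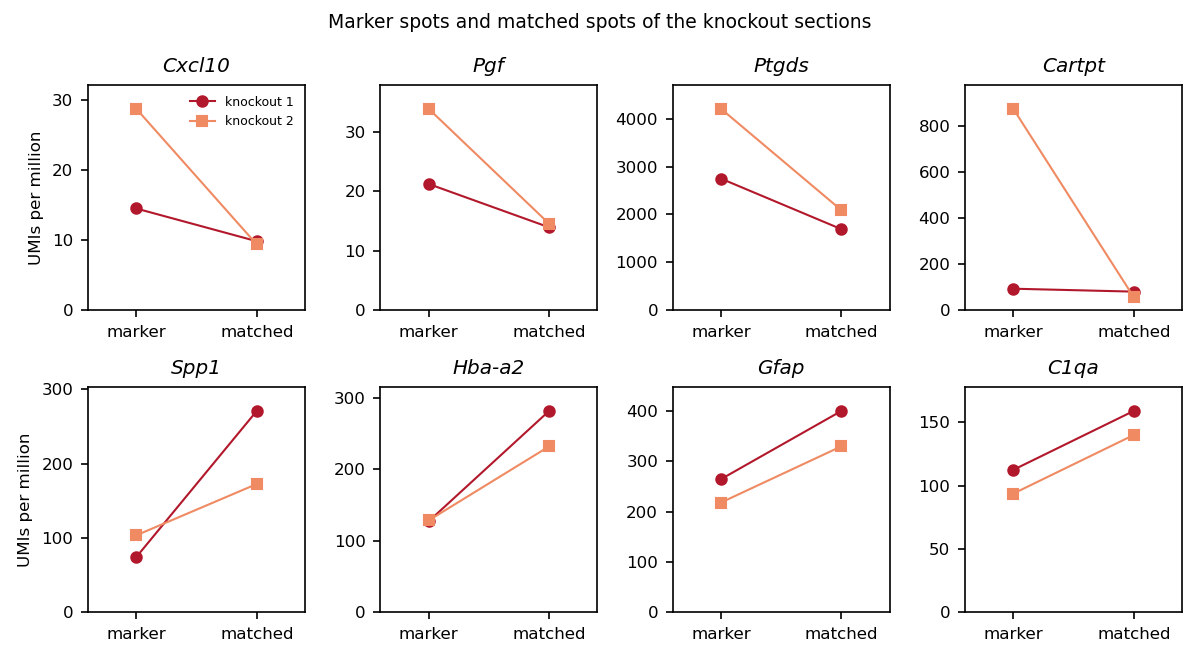
Level of 8 genes in CPM (y axis, from 0) in marker spots (left) and matched spots (right) of knockout 1 and knockout 2, each point the sum over a class of spots in 1 library. The upper genes are higher in marker spots in both libraries, with Cartpt at 876 in knockout 2 and 93.3 in knockout 1, and the lower genes are lower in both.

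The direction of several gene lists depended on which spots were compared. In the order of matching on share, matching on share and depth, leaving out the Plvap-led spots, and both, the median log2 fold change of the reactive astrocyte list was -0.29, -0.07, 0.05 and 0.31. That of the interferon response list was -0.07, 0.15, 0.10 and 0.44, and that of the red cell list -0.97, -0.21, -0.53 and 0.29. The myelin list had medians of 0.08, 0.12, -0.46 and -0.38. The blood-brain barrier list kept a median between -0.11 and -0.03 in all 4. With both changes, 2 of 26 reactive astrocyte genes rose, 2 of 23 tip cell genes rose and 2 of 17 myelin genes fell, against 0.255% of all genes called higher and 0.136% called lower. The genes that rose were Cxcl10 (log2 fold change 2.88) and Vim (0.44), and Pgf (1.03) and Apln (1.15), and Mbp (-0.57) was among the myelin genes that fell. Of the 2 astrocyte list genes, Cxcl10 is the interferon-induced chemokine described above. It was held by 1 of 27 and 6 of 41 Angpt2-led spots in knockouts 1 and 2.

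**Figure D4:**
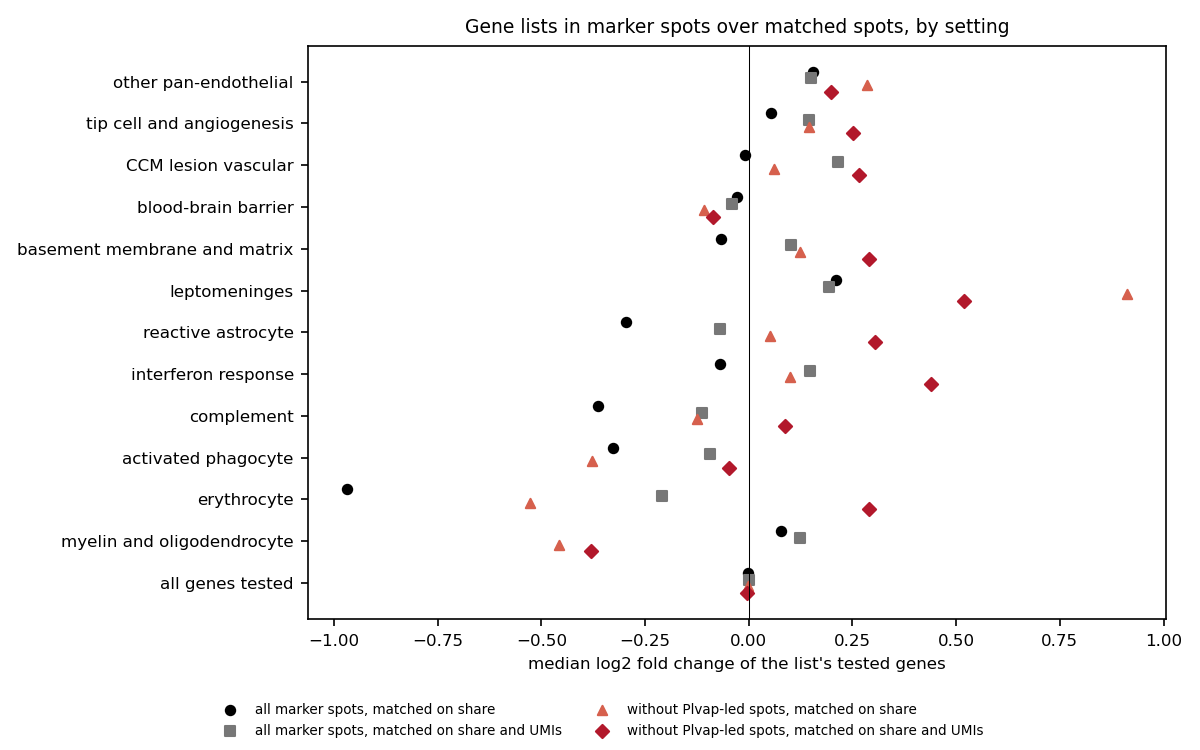
Median log2 fold change, marker over matched spots (x axis), of the tested genes of 12 gene lists and of all genes (y axis) under 4 ways of choosing the spots (symbols). The reactive astrocyte list moves from -0.29 to 0.31 and the red cell list from -0.97 to 0.29, while all genes stay at 0.

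Marker spots were not of 1 kind. Plvap-led spots (70 and 140) were set against Angpt2-led spots (27 and 41) of the same libraries, with Angpt2, Plvap and Procr left out of the calls. Plvap-led spots carried less of many genes of reactive astrocytes, interferon response, matrix and red cells, and more of many myelin genes. By edgeR, 555 genes were higher and 664 lower of 11575 tested (10.5%, with 4.79% higher and 5.74% lower), and DESeq2 called 70 higher and 104 lower. The median of all genes was 0.00.

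The classes also differed in endothelial share, as given above, and in depth, with medians of 30747.5 and 31529.5 UMIs in Plvap-led spots, against 20720 and 27795 in Angpt2-led spots. Each Angpt2-led spot was therefore paired with a Plvap-led spot near to it in share and total UMIs, a comparison added after the data were seen. Paired spots had median shares of 0.0351% and 0.0393% in Plvap-led spots, against 0.0664% and 0.0447% in Angpt2-led spots, so a gap remained in knockout 1. Their median depths were 23850 and 27964 UMIs, against 20720 and 27795. In these pairs 323 genes were higher and 350 lower of 10145 (6.63%, with 3.18% higher and 3.45% lower), and 622 of the 1219 calls were called again in the same direction.

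Vascular genes outside the rule were lower in Plvap-led spots. Apln had 22.8 and 20.3 CPM in Plvap-led spots, against 135 and 97.3 in Angpt2-led spots (log2 fold change -2.37 ± 0.19 SE, adjusted p 9.95e-09 by edgeR). Vwf, von Willebrand factor, had 13.1 and 19.4, against 84.8 and 63.0 (-2.05 ± 0.24, adjusted p 3.34e-06). Adm, the adrenomedullin gene, had 16.8 and 18.2, against 76.9 and 59.7 (-1.89 ± 0.22, adjusted p 4.18e-06). Each of the 3 genes was lower in Plvap-led spots in both libraries. Their folds in paired spots were -1.95, -1.71 and -1.85, all passing. In this comparison, Vim, S100a6, Igf2, Hbb-bs, Hba-a1, Pcp4, Nap1l5 and Cartpt were named by the fixed rule, and the other genes were chosen after their values were seen.

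Of 19 other pan-endothelial genes 10 fell and none rose, with a median of -0.64, whereas DESeq2 called none of them. In paired spots none of 18 passed by edgeR, and 6 were lower at an unadjusted p under 0.05. Emcn and Cd34, endothelial surface genes, fell by 1.34 ± 0.30 and 1.15 ± 0.22. Of 19 vascular genes known from cavernous malformations 10 fell, and 5 of 19 did so in paired spots. Of 20 tip cell and angiogenesis genes 7 fell, and 4 of 17 did so in paired spots. In these 2 lists DESeq2 called 3 of 19 and 2 of 20 genes lower. Vegfa, the main ligand of the VEGF receptors, had 51.3 and 66.0 CPM in Plvap-led spots, against 105 and 88.3 in Angpt2-led spots (-0.65 ± 0.17, adjusted p 0.0148 by edgeR), and did not pass in paired spots (-0.41). Slc2a1 had 288 and 311, against 535 and 455 (-0.69 ± 0.10, adjusted p 5.93e-05), and was 1 of 3 blood-brain barrier genes among 22 that fell.

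More matrix genes were lower than higher in Plvap-led spots, and the count of fibroblast genes rested in part on 1 spot. Of 26 basement membrane and matrix genes 14 fell and 1 rose, with a median of -0.95. Of 14 perivascular fibroblast genes 11 fell and none rose, with a median of -1.44, and DESeq2 called 1 of the 14 lower. Col4a1, a basement membrane collagen, had 46.2 and 74.5 CPM, against 176 and 148 (-1.34 ± 0.17, adjusted p 1.005e-05 by edgeR). Fn1, fibronectin, had 85.3 and 97.3, against 218 and 163 (-0.99 ± 0.14, adjusted p 5.36e-05). Either gene was lower in Plvap-led spots in both libraries. The fibroblast genes Col1a2 and Dcn fell by 1.69 ± 0.33 and 1.20 ± 0.19, and in paired spots 7 of 13 fibroblast genes and 8 of 19 matrix genes fell. In knockout 2, 1 of the 41 Angpt2-led spots held 42.4% of the UMIs of the fibroblast list. The summed fibroblast list stood there at 1277 CPM in Plvap-led spots, against 2091 in Angpt2-led spots and 1246 without that spot. The summed matrix list of knockout 2 was not lower in Plvap-led spots. It stood at 2233 CPM, against 2165 in Angpt2-led spots and 1931 without that spot. Without that spot, 541 of all 11523 genes tested were higher and 591 lower. In that setting 5 of 13 fibroblast genes and 10 of 25 matrix genes fell, and Col1a2 did not pass (-0.37).

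The leptomeninges list rested on the same spot, and DESeq2 called 1 of its 8 tested genes lower. Of 8 tested leptomeninges genes 6 fell, and Igf2, a growth factor gene expressed in meninges, had 12.1 and 13.2 CPM in Plvap-led spots, against 67.5 and 162 in Angpt2-led spots (-3.25 ± 0.23, adjusted p 2.00e-09 by edgeR). In Angpt2-led spots 5 spots held 93.0% and 98.0% of Igf2 UMIs, and the same single spot of knockout 2 held 92.4%. Without it the Igf2 fold was -1.26, still passing. Angpt2-led spots of knockout 2 then had 12.7 CPM of Igf2, against 13.2 in Plvap-led spots. The remaining fold thus rested on knockout 1, where 1 Angpt2-led spot held 24 of 43 Igf2 UMIs. Of 6 leptomeninges genes in that setting, 1 fell and 1, Ptgds, rose. Over all 11523 genes of that setting 591 fell and 541 rose. The summed list stood at 3385 and 2796 CPM in Plvap-led spots, against 2044 and 8416 in Angpt2-led spots, so it was higher in Plvap-led spots in knockout 1 and lower in knockout 2. That spot held 85.2% of the list's Angpt2-led UMIs in knockout 2, and without it the Angpt2-led level there was 1286 CPM, so the list was then higher in Plvap-led spots of both libraries.

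Astrocyte reaction genes gave one of the broadest differences. Of 25 reactive astrocyte genes 22 fell and none rose, with a median of -1.49, and in paired spots 16 of 25 fell with a median of -0.97. DESeq2 called 8 of the 25 lower. Gfap had 171 and 158 CPM in Plvap-led spots, against 496 and 330 in Angpt2-led spots (-1.27 ± 0.12, adjusted p 7.17e-08 by edgeR). Vim had 184 and 183, against 699 and 546 (-1.72 ± 0.10, adjusted p 1.84e-10), and S100a6, a calcium-binding protein gene, had 209 and 191, against 639 and 520 (-1.50 ± 0.10, adjusted p 6.90e-10). Serpina3n had 287 and 208, against 559 and 534 (-1.16 ± 0.11). The summed list stood at 1287 and 1177 CPM in Plvap-led spots, against 3067 and 2811 in Angpt2-led spots. Plvap-led spots thus lay below the average of all kept knockout spots (2007 and 2066) and above all kept control spots (375 and 386).

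**Figure D5:**
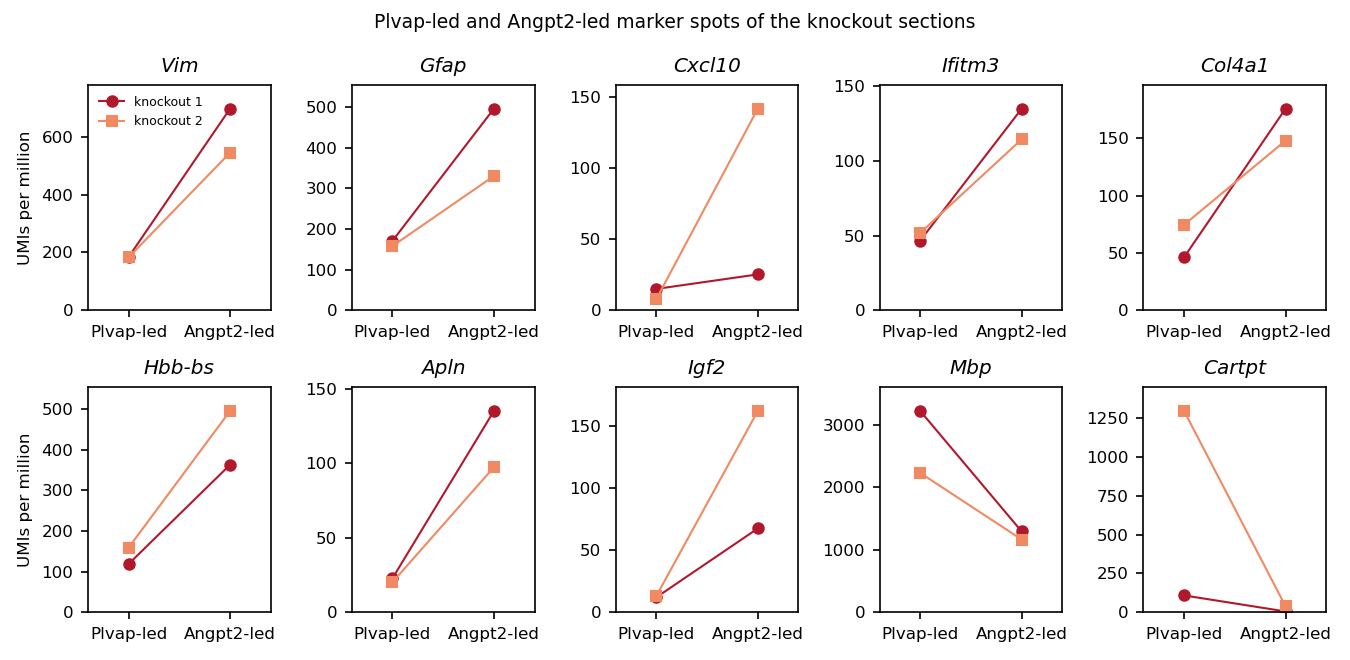
Level of genes in CPM (y axis, from 0) in Plvap-led spots (left) and Angpt2-led spots (right) of knockout 1 and knockout 2, each point the sum over a class of spots in 1 library. Apln reaches 135 and Gfap 496 in Angpt2-led spots of knockout 1, against 22.8 and 171 in its Plvap-led spots. In Angpt2-led spots of knockouts 1 and 2, 5 spots held 66.3% and 37.8% of Apln UMIs and 48.7% and 31.2% of Gfap UMIs.

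Interferon and complement genes followed the same direction. Of 30 interferon response genes 18 fell and none rose (median -1.14), and 6 of 25 did so in paired spots. DESeq2 called 2 of the 30 lower. Ifitm3, an antiviral membrane protein gene, had 46.6 and 51.8 CPM, against 135 and 115 (-1.28 ± 0.16, adjusted p 7.34e-06 by edgeR). Ifit3, another gene of that response, had 21.0 and 11.7, against 31.4 and 31.9 (-1.06 ± 0.29, adjusted p 0.0167), and did not pass in paired spots. Cxcl10 had 14.9 and 7.72, against 25.1 and 142 (-3.12 ± 0.39, adjusted p 9.65e-06), with its Angpt2-led UMIs in 1 of 27 spots and 6 of 41 spots. C4b, a complement component, fell by 0.84 ± 0.14, Cd74, the invariant chain of MHC class II, fell by 1.95 ± 0.35, and 7 of 12 complement genes fell. DESeq2 called 2 of those 12 lower. Without the single high Ptgds spot Cd74 did not pass (-0.99).

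All 5 red cell genes fell, and all 5 did so in paired spots. DESeq2 called 4 of the 5 lower. Hbb-bs had 119 and 159 CPM in Plvap-led spots, against 363 and 495 in Angpt2-led spots (-1.61 ± 0.11, adjusted p 6.90e-10 by edgeR), and Hba-a1 fell by 1.70 ± 0.11. Spp1 had 59.2 and 77.0, against 100.5 and 100.6 (-0.51 ± 0.16, adjusted p 0.0370), and its fold was 0.05 in paired spots and -0.31, not passing, without the high Ptgds spot.

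Myelin genes were higher in Plvap-led spots, and neuronal genes went both ways. Of 17 myelin and oligodendrocyte genes 12 rose and 1 fell, with a median of 0.92, and in paired spots 9 of 16 rose. Mbp, myelin basic protein, had 3220 and 2229 CPM in Plvap-led spots, against 1294 and 1165 in Angpt2-led spots (1.14 ± 0.09, adjusted p 4.54e-09 by edgeR). Slc17a6 had 165 and 178, against 50.2 and 55.6 (1.71 ± 0.15, adjusted p 6.13e-08), while Slc17a7, of cortical and hippocampal neurons, had 425 and 484, against 1112 and 889 (-1.10 ± 0.10, adjusted p 5.64e-08). Of 13 excitatory neuron genes 1 rose and 8 fell, and of 11 inhibitory neuron genes 5 rose and 2 fell. Pcp4, a calmodulin-binding protein gene, and Nap1l5, an imprinted neuronal gene, rose by 1.34 ± 0.10 and 1.16 ± 0.09, and Gad1 by 0.61 ± 0.14. Cartpt had 109 and 1293, against 6.28 and 39.3 (4.97 ± 0.17, adjusted p 1.13e-15), and Otx2 had 27.04 and 16.5, against 4.71 and 0.818.

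Regional composition, assigned from the same transcripts and so not a separate observation, moved with these genes too. The cortex list took 11.4% and 12.9% of Plvap-led spots, against 44.4% and 21.95% of Angpt2-led spots, and the white matter list took 25.7% and 25.7%, against 14.8% and 12.2%. Its part was not tested.

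In control libraries 35 of 2267 kept spots (1.54%, 95% Wilson interval 1.11 to 2.14) and 48 of 2557 (1.88%, 1.42 to 2.48) met the same rule. Plvap led 32 and 43 of them and Angpt2 2 and 4. Plvap stood at 72.7 and 69.0 CPM in knockout marker spots, against 114 and 89.2 in the control spots that met the rule. Angpt2 stood at 32.1 and 28.4, against 9.02 and 9.91. Both sets of spots were selected on these genes, so these levels follow in part from the rule. Of the control spots that met it, 35 of 35 and 47 of 48 held Plvap. Plvap-led spots of both genotypes differed in the summed reactive astrocyte list, with 1287 and 1177 CPM in knockouts, against 383 and 403 in controls, a difference that all kept spots also had.

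Whether the difference between rule-meeting and matched spots was itself different in knockouts was tested as an interaction of genotype with spot class over all 4 libraries. By edgeR, 25 genes were higher and 14 lower of 11935 (0.327%, with 0.209% higher and 0.117% lower), and DESeq2 called 2 and 1. Myelin genes made up 9 of the 25, and none of 17 fell. In knockouts Mbp had 2703 and 1898 CPM in marker spots, against 2554 and 1543 in matched spots, whereas in controls it had 2460 and 3549 in rule-meeting spots, against 4701 and 5155 in matched spots. The interaction was 0.91 ± 0.12 on the log2 scale (adjusted p 0.00463), and with matching on both measures it was -0.13 and 0 genes were higher by edgeR and 25 lower, with 400 and 551 at an unadjusted p under 0.05. None of the 19 other pan-endothelial, 20 cavernous malformation vascular, 22 tip cell or 22 blood-brain barrier genes passed by edgeR or DESeq2. At an unadjusted p under 0.05 by edgeR, 1, 1, 3 and 3 of them were higher and none lower.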

How the data were processed

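The authors deposited raw, unnormalised UMI counts for 32285 genes and 4992 barcodes in each library. They were made with Space Ranger against mm10, per the submitters' processing notes, and the sources used here give no version. The 4992 barcodes are those of the slide layout and recur in every library, and 20 barcodes were marker spots in both knockouts. Images and the positions of spots were not used here, so neither tissue cover nor distance to a lesion was known.

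Groups came from the genotype in the labels. Spots of at least 5000 UMIs were kept, and marker spots were paired without replacement, highest share first. UMI counts were summed per library and class, giving sums of 3301629 and 7358378 UMIs in marker spots and 1724820 and 4682080 in matched spots of knockouts 1 and 2. They were tested in R 4.3.3 with edgeR 4.0.16 (TMM factors, filterByExpr, quasi-likelihood test, library as a block, Benjamini-Hochberg over all genes tested, threshold 0.05), with DESeq2 1.42.0 as an alternative. Rule genes were left out of the calls, as were the 5 matching genes when marker and matched spots were compared, and the comparison of 2 classes rests on 4 sums. Standard errors of log2 fold changes were derived from the fold and its quasi-likelihood F. Levels (CPM) are UMIs scaled to the class sum of a library. Spots were assigned to 9 region lists by their genes in Python 3.11.15. The procedure was tested on simulated data.

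The members, 49 gene lists, comparisons and alternatives were chosen with earlier results of these data known. Named genes were drawn from those past the threshold with 1 direction in both knockouts, a mean of at least 10 CPM and no predicted symbol (12 largest rises, 10 largest falls, 6 smallest p), from up to 3 genes per list with the smallest p (or the 2 most abundant where fewer than 2 passed), and from the 8 smallest p of the other tests. Genes outside this rule are named as chosen after their values were seen, and some genes that met it are not reported here.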

Additional observations from a re-analysis of the deposited data

Results flagged for a closer look

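The 8 genes given here are among those whose difference between rule-meeting and matched spots was itself different between knockouts and controls, by edgeR's quasi-likelihood test of the interaction with Benjamini-Hochberg adjustment. Pomc, the precursor of pituitary and hypothalamic peptides, had the smallest adjusted p (6.87e-05), with a log2 difference of -4.44. It had 8.48 and 7.61 CPM in knockout marker spots, against 6.96 and 5.98 in matched spots, and in controls 236 and 254 in rule-meeting spots, against 8.71 and 9.34. In the controls, 5 spots held 93.2% and 98.0% of its UMIs. The summed pituitary list stood at 264 and 226 CPM in knockout marker spots and at 3631 and 887 in control spots that met the rule.

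The neutrophil genes S100a9 and S100a8 had log2 differences of -6.48 and -5.90. S100a9 had 7.27 and 10.2 CPM in knockout marker spots, against 19.7 and 16.2 in matched spots. In controls it had 44.1 and 16.7 in rule-meeting spots, all from 3 and 5 spots, against 1.45 and a count of 0 in matched spots. These differences therefore rest on few control spots.

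Gpx3, a secreted glutathione peroxidase gene, had a difference of -1.81, and Neurod6 one of -1.76. The myelin and oligodendrocyte genes Mbp, Car2 and Tspan2 had differences of 0.91, 1.06 and 1.01. Tspan2 had 113 and 98.7 CPM in knockout marker spots, against 82.3 and 82.0 in matched spots, and in controls 138 and 146, against 245 and 216. The adjusted p of these 5 genes lay between 0.00463 and 0.00674.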

How the results depend on the processing

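The call counts are given as totals of higher and lower genes. Against 855 calls for marker over matched spots, DESeq2 gave 63, spots thinned to 5000 UMIs 271, a floor of 10000 UMIs 474, at least 2 summed UMIs 501, at least 5 summed UMIs 112 and the rule applied after thinning 28. Matching on share and total UMIs gave 276, matching within region lists 341 and all other kept spots 1669. Leaving out the Plvap-led spots, added after the data were seen, gave 89, and 46 with matching on both measures, and leaving out 1 high Ptgds spot of knockout 2, also added then, gave 750. Against 1219 calls for Plvap-led over Angpt2-led spots, DESeq2 gave 174, thinned spots 407, at least 2 summed UMIs 795 and the pairing added after the data were seen 673, while leaving out that spot gave 1132. Against 39 calls for the interaction, DESeq2 gave 3, library totals 75 (38 higher and 37 lower, against 25 and 14), no filter on low counts 164, thinned spots 10, at least 2 summed UMIs 16, matching on both measures 25, the wider endothelial list 69 and all other kept spots 514. Leaving out 1 library gave 7 to 109 interaction calls, with 7 and 9 without knockouts 1 and 2 and 109 without control 1. RLE factors, a floor of 1000 UMIs and, for the first 2 comparisons, library totals and no filter kept each count within 1.5 times.

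The library was the replicate block, since both classes of spots come from the same section. Without the replicate block, 198 genes were called for marker over matched spots, 933 for Plvap-led over Angpt2-led spots and 4 for the interaction. The numbers of knockout and control libraries pair no samples.

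Among named genes, most reversals came with the Plvap-led spots left out and matching on both measures: log2 fold changes were then Cartpt -1.13, Ucn -1.84, Mab21l1 -1.25, Otx2 -1.35, Shox2 -0.54, Slc17a6 -0.62, Ptgds -0.021, Gad1 -0.0050, Neurod6 0.23, Ccl12 0.69, Malat1 0.12, Hba-a1 0.44, Hba-a2 0.15, Hbb-bs 0.34, Vim 0.44, Gfap 0.12, Serpina3n 0.066, C1qa 0.11, C1qb 0.22, C1qc 0.068 and Slc17a7 0.17. With those spots left out and share matching alone, Slc17a6 was -0.38 and Slc17a7 0.10. Matching on both measures turned the Mbp interaction to -0.13, the wider list gave Slc2a1 -0.020 and region matching gave Rsad2 -0.35. Without knockout 2, Ucn was -0.11, against 4.41 without knockout 1, and in paired spots Spp1 was 0.049. The causes were not tested.

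Leaving out a library from either within-knockout comparison leaves no residual degrees of freedom, so it gave folds and no test. Plvap-led against Angpt2-led spots were not run at 5 summed UMIs or under the thinned rule, nor was the interaction there or without Plvap-led spots, because a class then had under 20 spots. Most sums of 3 UMIs lie at the counting limit, and depth differed between the classes compared.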

Other observations

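Procr-led spots, 19 in knockout 1 and 23 in knockout 2, had too few spots in knockout 1 for a test. They held 126 and 138 CPM of Procr, 7.86 and 17.7 of Angpt2 and 23.58 and 22.996 of Plvap. Their median depths were 14496 and 21212 UMIs, below those of the Plvap-led spots of the same libraries.

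The rule genes differed by depth of the spot. In knockout 1, Angpt2 stood at 13.2 CPM in spots of 5000 to 10000 UMIs and at 3.99 in spots of 40000 and over, and in knockout 2 at 12.8 and 5.40. Plvap followed no such order. Its levels over the 5 bins were 14.8, 16.8, 23.4, 25.7 and 18.9 in knockout 1 and 16.3, 19.1, 23.8, 26.5 and 17.8 in knockout 2, highest between 30000 and 40000 UMIs in both.

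Kept spots with at least 3 UMIs of Cartpt had more Plvap than kept spots with none, and this held in all 4 libraries. They had 32.1 and 32.5 CPM in the knockouts and 27.8 and 20.4 in the controls. Spots with no Cartpt had 17.4 and 18.8 in the knockouts and 17.7 and 16.05 in the controls. No test was run on this difference. The spots with Cartpt were also deeper, with medians of 24766 and 28154 UMIs in the knockouts and 25608 and 27143 in the controls. Spots with no Cartpt had medians of 12415.5 and 14256 in the knockouts and 17062.5 and 21792 in the controls. The part of depth was not tested.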
